A study of Homo sapiens with 8 samples.

Results

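The SLC1 genes encode a family of sodium-driven amino-acid carriers of the cell surface. The family was taken by gene symbol from the count tables of 8 tumours, which gave 7 genes, SLC1A1 to SLC1A7, of 59050 symbols listed. The family was chosen by the measured rise of SLC1A2 in SMARCA4 knockout tumours, so the SLC1A2 values in that comparison are a description and carry no test. The 6 other members entered by name and not by value.

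The tumours were H2122 xenografts, H2122 being a long-used cell line from a human lung cancer. The 4 parental tumours had the wild-type genotype at SMARCA4, which encodes a motor subunit of the SWI/SNF complexes that move nucleosomes. The other 4 tumours came from H2122 cells with a SMARCA4 knockout. All 8 tumours were from vehicle treatment, and no drug-treated tumour was used here. Whether the knockout cells were a single clone, and the host animals with their strain, age and immune cells, were not given in the sources used here.

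SLC1 transporters couple uptake of an amino acid to the inward flow of sodium, and the gradient they use is kept up by the sodium pump. SLC1A1, SLC1A2, SLC1A3, SLC1A6 and SLC1A7 carry glutamate and aspartate and are best known from the brain and retina, where SLC1A2 and SLC1A3 of astrocytes clear glutamate from synapses. SLC1A4 and SLC1A5 exchange neutral amino acids such as alanine, serine and cysteine, and SLC1A5 also carries glutamine, which many carcinoma cells take up in large amounts.

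Gene counts per library ran from 19785922 to 23191698. SMARCA4 itself was at 27.3 ± 3.90 CPM in knockout and 221 ± 16.0 CPM in parental tumours (mean and SD, n = 4 each; CPM is the count scaled to the TMM-adjusted library size), so each library was on the side of its label. Keratins and EPCAM, markers of epithelial tumour cells, were abundant in both groups but not all at like levels. Mean KRT7, KRT19 and EPCAM were 1675, 1060 and 515 CPM in parental and 1024, 526 and 441 CPM in knockout tumours. None of these overlapped between the groups. KRT8 (1791 and 2003 CPM) and KRT18 (1248 and 1350 CPM) did overlap. The lung lineage factor gene NKX2-1 had 0 counts in all 8 libraries (a count of 0 allows up to 3 counts). The surfactant gene SFTPB had 2 to 8 counts per library. Summed markers of leukocytes and macrophages were highest in parental replicates 2 and 3, at 71.2 and 60.8 CPM, against 7.36 to 30.4 CPM in the other 6 tumours. Skeletal muscle markers summed to 34.8 CPM in parental replicate 2, 15.7 CPM in knockout replicate 4 and at most 7.19 CPM elsewhere.

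Promoter sequence is shown for the neutral amino-acid carriers SLC1A4 and SLC1A5. Their log2 fold changes differed in sign (0.58 and -0.34), but the fall of SLC1A5 did not pass the test given below. SLC1A1 and SLC1A3 also differed in sign (0.27 and -0.37), and neither passed. RefSeq windows on GRCh38.p14 were matched for 6 of the 7 members, with 12 windows in all, and none was matched for SLC1A2. Each sequence below is the 250 bases before an annotated start, 5′ to 3′ on the strand of the gene, with GC boxes (GGGCGG, either strand) in capitals.
SLC1A5, chr19:46788595-46788844, minus strand: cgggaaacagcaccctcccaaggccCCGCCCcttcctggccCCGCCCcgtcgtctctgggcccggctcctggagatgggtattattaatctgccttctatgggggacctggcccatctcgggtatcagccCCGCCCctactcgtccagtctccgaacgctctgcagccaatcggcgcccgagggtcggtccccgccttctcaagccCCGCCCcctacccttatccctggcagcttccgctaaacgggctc
SLC1A4, chr2:64989149-64989398, plus strand: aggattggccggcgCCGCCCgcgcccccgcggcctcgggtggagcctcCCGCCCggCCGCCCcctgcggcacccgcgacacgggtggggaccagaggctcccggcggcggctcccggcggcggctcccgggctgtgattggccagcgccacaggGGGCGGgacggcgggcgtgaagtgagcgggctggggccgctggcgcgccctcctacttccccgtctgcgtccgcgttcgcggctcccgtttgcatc

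Each of these windows held 4 GC boxes, the element bound by Sp-family factors, which occurred in 42.6% of 35116 RefSeq windows of the same length. Neither held the core of the amino-acid response element bound by ATF4 with C/EBP partners (TGATGNAA, either strand, found in 3.14% of all windows), the AP-1 element TGANTCA (6.57%) or the E-box CACGTG (6.34%). GC boxes were thus the only 1 of these 4 motifs in both windows, with no overlap between motifs. This holds for the windows shown. The other SLC1A4 window, chr2:64988229-64988478, held none of the 4 motifs. The SLC1A5 window chr19:46787294-46787543 held 1 E-box and no GC box. Another SLC1A5 window, chr19:46784815-46785064 before a downstream start, held 1 copy of the ATF4 core. In SLC1A3, 1 of 3 windows held that core and another held 2 AP-1 elements. These matches describe letters in a window and not binding.

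SLC1A2 encodes the main glutamate transporter of astrocytes and lies on chromosome 11 from 35251205 to 35420063, minus strand (ENSG00000110436; positions are from GENCODE 29 on GRCh38). Parental replicates 1 to 4 held 0, 1, 4 and 6 SLC1A2 counts, or 0, 0.0488, 0.179 and 0.255 CPM. The 0 counts of parental replicate 1 allow up to 0.155 CPM. Parental tumours were thus at the edge of detection at this depth.

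Knockout replicates 1 to 4 held 310, 203, 202 and 85 SLC1A2 counts, or 14.5, 9.90, 9.43 and 3.97 CPM. All 4 knockout tumours were above all 4 parental tumours. The group means were 0.121 ± 0.117 and 9.44 ± 4.31 CPM (mean and SD, n = 4 each), and pooled counts were 11 and 800, a ratio of 73.5 after scaling (exact 95% interval 40.9 to 148, counting error only). With the leukocyte score as covariate the log2 fold change was 6.28, and without parental replicate 2 it was 5.90. The fit on all tumours gave 6.15 (SE 0.564), which ranked 4 of 16219 genes tested, and was 6.77 without parental replicate 4, which holds 6 of the 11 parental counts.

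Knockout tumours differed among themselves in SLC1A2 by a factor of 3.65 between the highest, replicate 1, and the lowest, replicate 4. The coefficient of variation in the knockout group was 45.6%, higher than in 96.4% of tested genes, against 7.58% to 21.8% for the 4 other members that passed the filter. Knockout replicate 4 also had the highest shares of reads outside genes (10.4%) and of mitochondrial counts (10.9%) of the 8 libraries. Their part in its SLC1A2 level was not tested. In bulk tumours, fewer cells with a transcript and less transcript per cell cannot be told apart. The gene shares 51 exonic bases with the antisense gene AC090625.2, which had 0 counts in all 8 libraries.

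SLC1A5 encodes ASCT2, the glutamine and neutral amino-acid exchanger, on chromosome 19 from 46774883 to 46788594, minus strand (ENSG00000105281). It was at 203, 155, 201 and 233 CPM in parental replicates 1 to 4 and at 137, 157, 160 and 171 CPM in knockout replicates 1 to 4. Parental replicate 2 lay among the knockout tumours, and the other 3 parental tumours lay above them.

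Mean SLC1A5 was 198 ± 32.0 CPM in the parental group and 156 ± 14.2 CPM in the knockout group (mean and SD, n = 4 each), and the fitted log2 difference of -0.34 (SE 0.122) missed the threshold (adjusted p = 0.0595, edgeR's quasi-likelihood test with Benjamini-Hochberg adjustment over all genes tested). Without parental replicate 2 it passed, at -0.44 (edgeR adjusted p = 0.00719), and with a leukocyte score as covariate it passed at -0.35 (adjusted p = 0.0166). It did not pass in 12 of 16 alternative analyses, with an adjusted p of up to 0.165, reached without knockout replicate 1. Parental replicate 2 had the highest leukocyte and muscle marker sums of the 8 tumours, whose part in its SLC1A5 value was not tested further. The antisense gene AC008622.2 lies over 780 bases of SLC1A5 exons, was at 2.56 ± 0.438 and 1.62 ± 0.431 CPM (mean and SD, n = 4 each), and had a log2 fold change of -0.66 (edgeR adjusted p = 0.0592). The use of strand in counting is not given in the sources used here. Whether reads over these shared bases were assigned to a gene or left out as ambiguous therefore cannot be told. The SLC1A5 level per length given below used all 3332 exonic bases.

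SLC1A4 encodes ASCT1, the exchanger of alanine, serine and cysteine, on chromosome 2 from 64988477 to 65023865, plus strand (ENSG00000115902). Its parental tumours were at 4.45, 5.03, 4.96 and 4.04 CPM and its knockout tumours at 5.42, 8.29, 8.17 and 5.84 CPM. Every knockout tumour lay above every parental tumour, with knockout replicates 2 and 3 the highest.

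SLC1A4 rose from 4.62 ± 0.464 to 6.93 ± 1.51 CPM (mean and SD, n = 4 each), with a fitted log2 difference of 0.58 (SE 0.178; adjusted p = 0.0314 by edgeR). It was the only paralog of SLC1A2 past the threshold, and the call was lost without parental replicate 1 (adjusted p = 0.0768), parental replicate 4 (0.0728), knockout replicate 2 (0.0980) or knockout replicate 3 (0.0963). The fold change was above 0 in all 16 alternative analyses, from 0.49 to 0.69.

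SLC1A1 encodes EAAT3, a glutamate and cysteine transporter of neurons and of kidney and gut epithelium, on chromosome 9 from 4490444 to 4587469, plus strand (ENSG00000106688). Its parental tumours were at 10.2, 7.57, 9.60 and 7.91 CPM and its knockout tumours at 10.8, 10.9, 11.3 and 9.48 CPM. Knockout replicate 4 lay below 2 parental tumours, so the groups overlapped. Its log2 fold change of 0.27 (SE 0.134) did not pass (adjusted p = 0.160 by edgeR, and 0.111 to 0.353 over the alternatives).

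SLC1A3 encodes EAAT1, the other astrocyte glutamate transporter, on chromosome 5 from 36606355 to 36688334, plus strand (ENSG00000079215). Its parental tumours were at 4.51, 2.30, 1.03 and 2.42 CPM and its knockout tumours at 2.15, 2.24, 1.73 and 1.77 CPM. Parental replicate 1 was the highest and parental replicate 3 the lowest of all 8 tumours, with every knockout tumour between them. Its log2 fold change of -0.37 (SE 0.359) did not pass (adjusted p = 0.490 by edgeR), and it was 0.037 without parental replicate 1 and -0.64 without parental replicate 3 (adjusted p = 0.123). With the leukocyte score as covariate it was -0.32 (adjusted p = 0.470).

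SLC1A6 (ENSG00000105143, chromosome 19, 14950034 to 15022990, minus strand) encodes EAAT4 of Purkinje cells and SLC1A7 (ENSG00000162383, chromosome 1, 53087179 to 53142632, minus strand) encodes EAAT5 of the retina. SLC1A6 had 1 count in knockout replicate 2 and 0 in the other 7 libraries. SLC1A7 had 1 count in parental replicate 4, 1 in knockout replicate 2 and 0 elsewhere. Neither passed the filter on low counts, and neither was detectable beyond single reads at this depth.

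Of the 5 members that passed the filter, SLC1A2 and SLC1A4 were called, both higher, against 13.0% of all tested genes called higher, 14.1% called lower and 27.0% called in either direction. The groups did not overlap for SLC1A2 and SLC1A4, against 29.3% of all tested genes. SLC1A2 is in these counts by choice, so nothing is read from them. The plot of the 5 genes by tumour shows the members on their own axes.

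**Figure D1:**
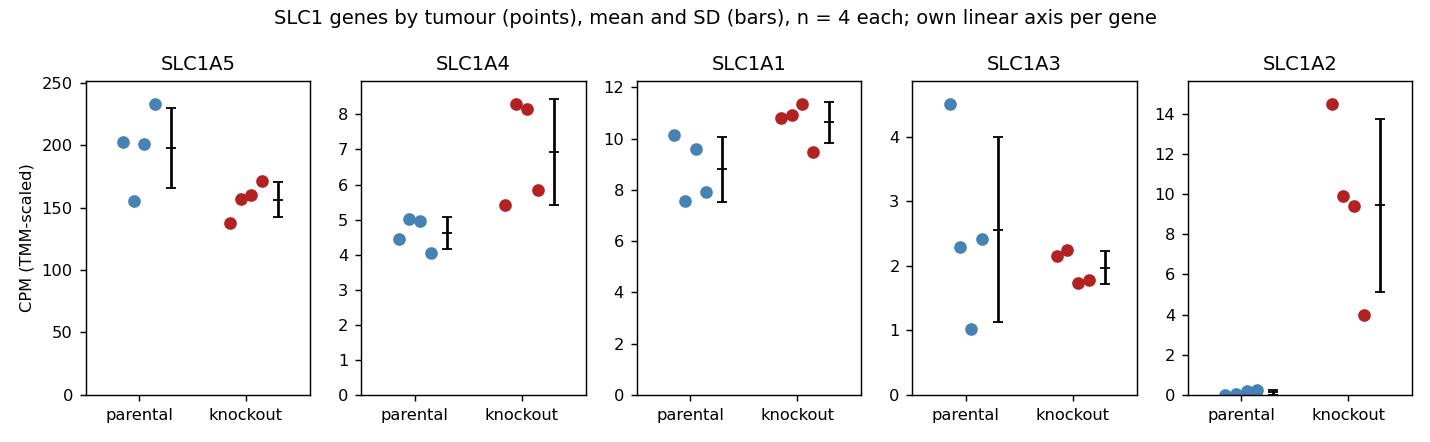
CPM (y, linear, own axis for each gene) of the 5 SLC1 genes that passed the filter, in 4 parental and 4 SMARCA4 knockout tumours. Points are tumours in replicate order and bars are mean and SD. SLC1A2 is at 0 to 0.255 CPM in the parental group and 3.97 to 14.5 CPM in the knockout group, whereas SLC1A5, SLC1A1 and SLC1A3 overlap between the groups.

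**Figure D2:**
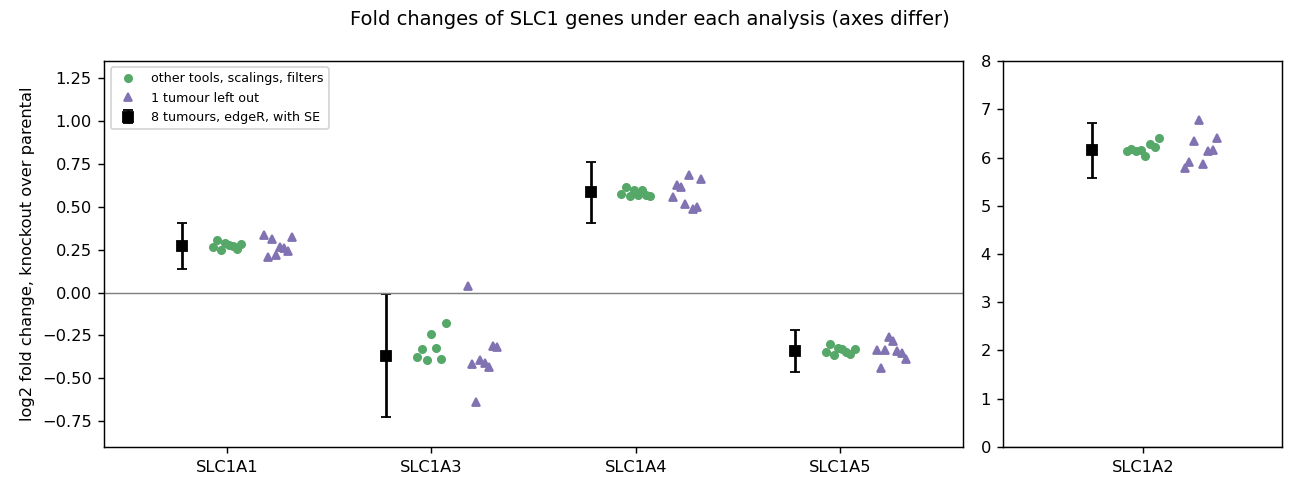
Log2 fold change (y, knockout over parental) of SLC1 genes with all 8 tumours and SE (squares), with other tools, scalings, filters or covariates (circles) and with 1 tumour left out (triangles). SLC1A2 is drawn on its own axis and runs from 5.78 to 6.77, and SLC1A3 is the member that crosses 0.

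Levels of different genes were compared per kilobase of annotated exons. On this scale SLC1A5 was the highest member in every tumour, at 59.4 ± 9.61 CPM per kb in the parental group and 46.9 ± 4.27 CPM per kb in the knockout group (mean and SD, n = 4 each). It made up 94.7% ± 0.925 and 91.4% ± 1.36 of the summed family level. The summed level was 62.7 ± 9.67 CPM per kb in parental and 51.3 ± 4.04 CPM per kb in knockout tumours, with ranges of 49.6 to 72.8 and 45.7 to 55.1 that overlap.

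In parental tumours SLC1A1 followed at 2.20 ± 0.316 CPM per kb, then SLC1A4 at 0.666 ± 0.0669 and SLC1A3 at 0.409 ± 0.230 (mean and SD, n = 4 each). SLC1A4 and SLC1A3 overlapped, at 0.582 to 0.725 and 0.164 to 0.719 CPM per kb, while SLC1A5 and SLC1A1 stood apart from each other and from the rest. SLC1A2 came next at 0.00528 ± 0.00513 CPM per kb, and its range overlapped those of SLC1A6 and SLC1A7.

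In knockout tumours the order began with SLC1A5, SLC1A1 (2.66 ± 0.202 CPM per kb) and SLC1A4 (0.998 ± 0.218), whose ranges did not overlap. SLC1A2 was next at 0.414 ± 0.189 CPM per kb (0.174 to 0.634) and overlapped SLC1A3 at 0.315 ± 0.0416 (0.276 to 0.358). SLC1A2 thus held 0.831% ± 0.440 of the summed level per length in knockout tumours, and 0.00799% ± 0.00707 in parental tumours. By the length of the longest transcript, which is 12041 bases for SLC1A2 in place of 22835 exonic bases, its knockout share was 1.36%. Among glutamate carriers, SLC1A1 had a higher level per length than SLC1A2 in every knockout tumour, the lowest SLC1A1 value being 2.37 CPM per kb.

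**Figure D3:**
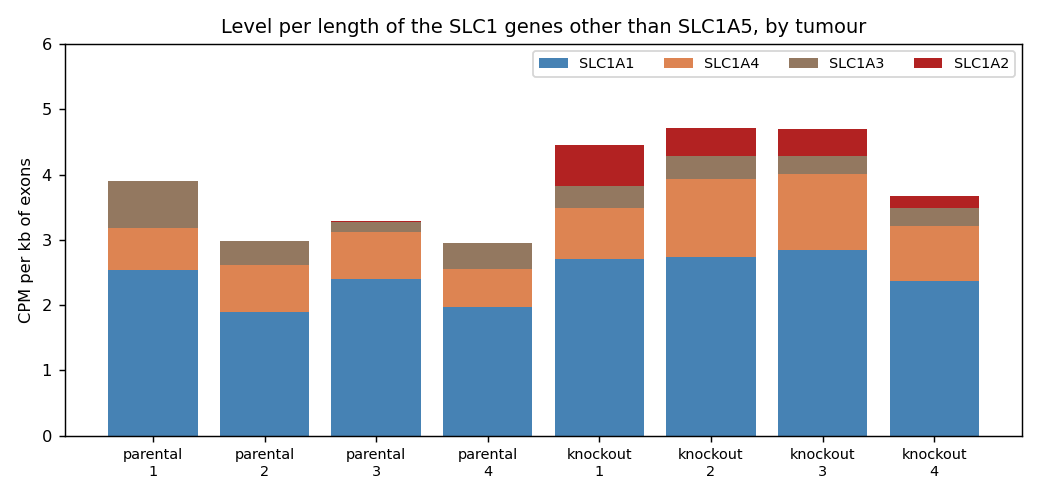
Level per length (y, CPM per kb of exons) of SLC1A1, SLC1A4, SLC1A3 and SLC1A2, stacked for each of the 8 tumours; SLC1A5 is left out of the bars and lies at 41.2 to 69.9 CPM per kb. The SLC1A2 segment is visible in the 4 knockout tumours and is largest in knockout replicate 1, at 0.634 CPM per kb.

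Pearson correlations of the members' deviations from their group means over the 8 tumours ran from -0.40 (SLC1A2 with SLC1A3) to 0.28 (SLC1A1 with SLC1A4) over the 10 pairs, and SLC1A2 with SLC1A4 was at -0.02. These values are descriptions over 8 tumours that share their libraries.

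The genes most like SLC1A2 in log2 CPM over the 8 tumours were CYFIP2 (Pearson r 0.992), LDHD (0.989), AC112220.2 (0.989), CDA (0.986) and MT2A (0.986), out of 13052 genes whose average log2 CPM reached 1. This likeness contains the group difference, and 177 genes had an r of at least 0.95. CYFIP2, an actin regulator of the WAVE complex, was at 33.4 to 41.2 CPM in parental and 169, 130, 148 and 105 CPM in knockout replicates 1 to 4. It was also highest in knockout replicate 1 and lowest in replicate 4, but it was picked for its likeness to SLC1A2. In deviations from the group means the closest genes were GK5 (0.970), CCDC50 (0.951), GZF1 (0.949), SDC1 (0.948) and DYSF (0.944). Of these, SDC1, the syndecan-1 gene, was called lower (log2 fold change -0.32) and DYSF, the dysferlin gene, higher (0.55), with edgeR adjusted p-values of 0.0317 and 0.00629. The closest genes were found by search among all 13052, of which 2 reached an r of 0.95. The parental deviations of SLC1A2 rest on 0, 1, 4 and 6 counts, so this likeness is a description with no test.

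The neighbourhood of SLC1A2 was compared because position was not used to choose the family. Its 10 nearest tested genes, 5 on each side, span 34478793 to 36465204 of chromosome 11. Of these, 1 was called higher and 4 lower, against 13.0% and 14.1% of all tested genes, and their median log2 fold change was -0.26, against 0.00 over all tested genes. Their log2 fold changes ran from -3.87 to 0.63. SLC1A2 was chosen for its rise, so nothing is read from the gap between it and its neighbours.

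CD44, which encodes a hyaluronan receptor of the cell surface and ends 18.8 kb from SLC1A2 on the opposite strand, was the neighbour called higher. It was at 269, 304, 270 and 262 CPM in parental and 483, 456, 431 and 341 CPM in knockout replicates 1 to 4, with no overlap (log2 fold change 0.63, SE 0.111, edgeR adjusted p = 0.00153). Knockout replicate 1 was the highest and replicate 4 the lowest, as in SLC1A2, whose replicates 2 and 3 held nearly equal counts (203 and 202). How many tested genes share these extremes was not counted.

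ELF5 and EHF, epithelial ETS-family transcription factor genes on the far side of CD44, fell by 3.87 and 0.64 on the log2 scale (edgeR adjusted p = 0.000856 and 0.00135). ELF5 counts summed to 96 over the parental and 6 over the knockout libraries. On the other side FJX1 fell by 0.84 and TRIM44, a tripartite motif gene, fell by 0.27 (edgeR adjusted p = 0.0142 and 0.0228). APIP (-0.28), PDHX (-0.04), LDLRAD3 (0.22), COMMD9 (-0.24) and PRR5L (-0.08) did not pass, with edgeR adjusted p-values of 0.172, 0.828, 0.196, 0.0503 and 0.772. Among the 10 nearest genes of each other member, 2 were called for SLC1A1 (1 higher, 1 lower), 4 for SLC1A4 (1 higher, 3 lower) and 3 for SLC1A5 (1 higher, 2 lower), near the share of 27.0% called among all tested genes. For SLC1A3 edgeR called 0 of 10, with 0 at an unadjusted p under 0.05, and DESeq2 and limma also called 0.

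**Figure D4:**
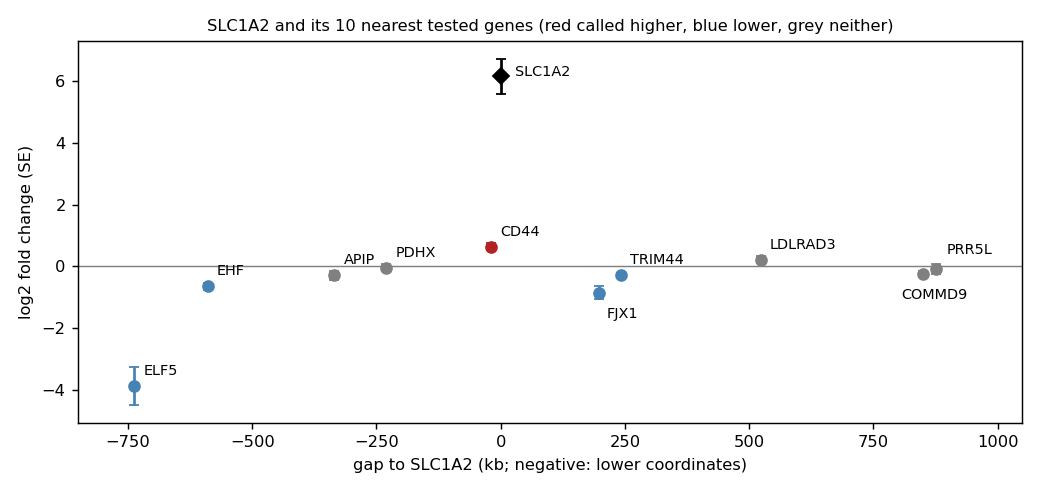
Log2 fold change with SE (y, knockout over parental) of SLC1A2 (diamond) and its 10 nearest tested genes (circles) against the gap between the genes in kb (x). Red genes were called higher, blue lower and grey neither. SLC1A2, which was chosen for its rise, stands at 6.15 between CD44 at 0.63 and FJX1 at -0.84.

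Genes that make, use or move the substrates of SLC1 carriers were then examined, as lists set by function. In glutamate and glutamine metabolism 24 of 26 genes were tested, of which 3 were called higher and 5 lower (33.3%, against 27.0% of all tested genes), with a median log2 fold change of -0.08. GLUL, which makes glutamine from glutamate, fell from 767 ± 134 to 582 ± 57.2 CPM (mean and SD, n = 4 each; log2 fold change -0.40, edgeR adjusted p = 0.0374), with overlapping groups.

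GPT2, the mitochondrial alanine transaminase, fell by 0.94 and GAD1, which makes GABA from glutamate, fell by 1.70 on the log2 scale (edgeR adjusted p = 1.71e-05 and 0.00229). GLUD2 fell by 1.89 (adjusted p = 0.000295), but it is an intronless near-copy of GLUD1, which makes its counts uncertain. GFPT2, which spends glutamine to make hexosamines, rose from 2.50 ± 0.731 to 20.3 ± 6.17 CPM (mean and SD, n = 4 each; log2 fold change 3.03, edgeR adjusted p = 1.07e-05). Its knockout tumours were at 28.6, 19.3, 19.6 and 13.7 CPM, so replicate 1 was highest and replicate 4 lowest, as in SLC1A2. The share of tested genes with these extremes was not counted. GCLC, a subunit of the enzyme that starts glutathione synthesis from glutamate and cysteine, rose by 0.59 on the log2 scale (adjusted p = 0.00232).

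Among other amino-acid transporters of the cell surface, 19 of 28 were tested, with 6 called higher and 2 lower. This was 42.1%, against 27.0% of all tested genes, with a median log2 fold change of 0.05. SLC7A5, the large neutral amino-acid exchanger, rose from 484 ± 70.9 to 632 ± 92.3 CPM (mean and SD, n = 4 each; log2 fold change 0.39, edgeR adjusted p = 0.0471), while its partner chain SLC3A2 was at 305 ± 20.1 and 316 ± 27.4 CPM (adjusted p = 0.700). SLC7A11, which exports glutamate in exchange for cystine, was at 606 ± 117 and 551 ± 54.3 CPM (adjusted p = 0.504). SLC7A8 (0.76), SLC36A4 (0.57) and SLC6A14 (0.48) rose and SLC6A15 (-0.68) and SLC36A1 (-0.39) fell on the log2 scale, with edgeR adjusted p-values of 0.0301, 0.000825, 0.0317, 0.0103 and 0.0108. The count of 8 called transporters fell to 3 without parental replicate 1 or knockout replicate 3, to 4 without knockout replicate 1 and to 5 without knockout replicate 2.

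Glutamate receptors and vesicular glutamate transporters were mostly under the filter, with 6 of 29 genes tested. The kainate receptor genes GRIK3 and GRIK2 were the 2 called, both lower (33.3%, against 14.1% of all tested genes called lower and 27.0% called in either direction, with a median log2 fold change of 0.36). At an unadjusted edgeR p under 0.05, 3 were higher, and DESeq2 and limma each called 0 higher. GRIK3 fell from 2.23 ± 0.807 to 0.0827 ± 0.0241 CPM and GRIK2 from 1.23 ± 0.372 to 0.164 ± 0.0883 CPM (mean and SD, n = 4 each; edgeR adjusted p = 1.59e-05 and 0.000345). With a minimum count of 50 neither entered the test.

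The ATF4 response to amino-acid shortage, which is known to act on SLC1A4 and SLC1A5, had 18 of 18 genes tested. Of these, 2 were called higher and 3 lower (27.8%, near the 27.0% of all tested genes, with a median log2 fold change of -0.04). TRIB3, a pseudokinase gene of this response, rose from 52.2 ± 3.13 to 98.8 ± 15.7 CPM (mean and SD, n = 4 each; log2 fold change 0.92, edgeR adjusted p = 0.000133). ASNS, asparagine synthetase, rose by 1.46 on the log2 scale from 27 counts summed over parental tumours to 74 over knockout tumours (adjusted p = 0.0127). It held 3 to 12 counts per parental and 13 to 21 per knockout library. Annotated genes that overlap ASNS were not examined, so how far these low counts reflect its level was not tested. PHGDH, which starts serine synthesis, fell from 11.1 ± 6.59 to 0.306 ± 0.109 CPM (log2 fold change -5.16, SD, n = 4 each; edgeR adjusted p = 5.08e-05). DDIT4 fell by 0.96 and SHMT2 by 0.41 (edgeR adjusted p = 0.0154 and 0.00270).

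Of proteins known to bind or regulate SLC1 transporters, 13 had a gene symbol in the counts and 12 were tested. The 5 that were called by edgeR were all lower (41.7%, against 14.1% of all tested genes called lower and 27.0% called in either direction, with a median log2 fold change of -0.11). At an unadjusted p under 0.05, 3 were higher, and DESeq2 and limma each called 1 higher. AJUBA, whose LIM-domain protein binds the SLC1A2 transporter, fell from 72.0 ± 3.39 to 40.9 ± 1.27 CPM (mean and SD, n = 4 each; log2 fold change -0.82, edgeR adjusted p = 1.90e-05). The scaffold gene SLC9A3R1 fell by 1.03 and the dystrobrevin gene DTNA by 3.09 on the log2 scale (adjusted p = 4.16e-05 and 1.70e-05). Among sodium pump subunits, 5 of 12 were tested and 2 were called, 1 higher and 1 lower. This was 40.0%, against 27.0% of all tested genes, with a median log2 fold change of -0.28. ATP1B3, a beta subunit gene, rose by 0.47 on the log2 scale (edgeR adjusted p = 0.0237). When 1 tumour was left out, 5 of the 8 fits called 1 pump subunit in place of 2.

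**Figure D5:**
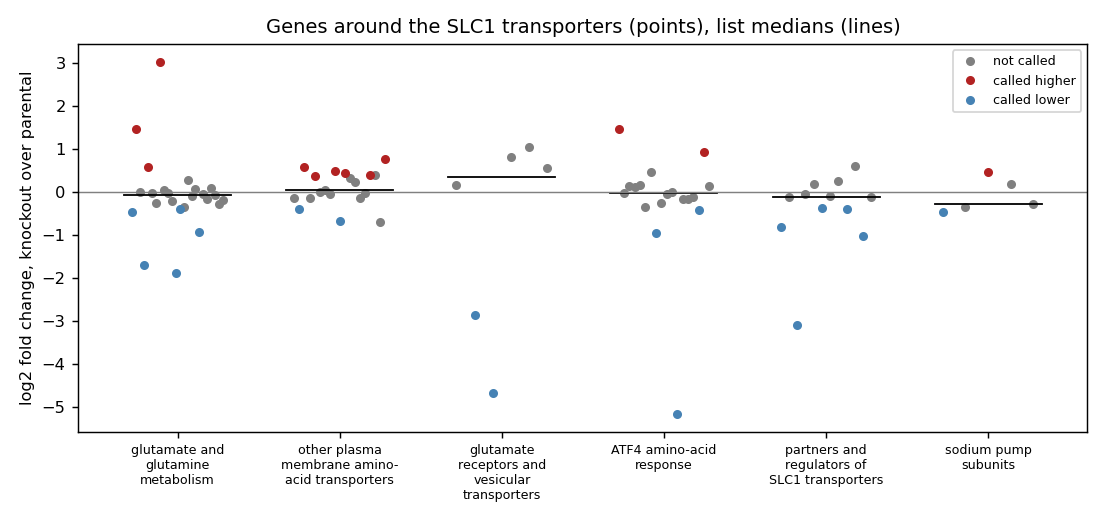
Log2 fold change (y, knockout over parental) of the tested genes in 6 functional lists (x), with called genes in red (higher) or blue (lower), others in grey and list medians as lines. List medians lie between -0.28 and 0.36, GFPT2 is the highest gene at 3.03, and PHGDH is the lowest at -5.16.

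Markers of cell types in which SLC1A2 is known were measured beside it. Of 7 astrocyte markers, FABP7 was at 0 counts throughout and GFAP counts summed to 5 over the parental and 4 over the knockout libraries. GLUL made up most of the summed astrocyte list, which was at 717 to 1020 CPM in the parental group and 592 to 775 CPM in the knockout group. Of 7 hepatocyte markers, TTR had 0 counts throughout, and the sum of 1965 to 2419 CPM in the parental group and 1558 to 2058 CPM in the knockout group lay mostly in CPS1 and SERPINA1. The 7 neuron markers summed to 12.7 to 20.7 and 9.90 to 14.3 CPM, with SYT1 the highest at 15.7 and 10.1 CPM. Summed levels of these 3 lists overlapped between the groups. Fibroblast markers summed to 179 to 607 CPM in parental tumours and 343 to 603 CPM in knockout tumours, mostly COL1A1, and endothelial markers to 7.30 to 18.3 and 9.20 to 15.5 CPM. Of the 7 fibroblast markers 4 were tested and 1 was called, and of the 7 endothelial markers 2 were tested and 1 was called. Over all tested genes 27.0% were called in either direction. The called genes, LUM and VWF, were named here after their values were seen. LUM, the gene of the matrix protein lumican, rose from 33 to 1053 summed counts (log2 fold change 5.00, edgeR adjusted p = 1.98e-06), and VWF, the von Willebrand factor gene, fell from 172 to 32 (-2.37, edgeR adjusted p = 0.00041). Neither gene overlapped between the groups. The other tested members, COL1A1 (0.34), COL1A2 (0.60), COL3A1 (-0.16) and PECAM1 (0.30), were not called (edgeR adjusted p = 0.456, 0.385, 0.853 and 0.504). Members under the filter went both ways at low summed counts in parental and knockout libraries. PDGFRB was at 27 and 15, DCN at 9 and 24, KDR at 38 and 9 and TIE1 at 15 and 30. The part of these cell types in the SLC1 values was not tested.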

How the data were processed

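RNA-seq of 8 tumours, 4 parental and 4 SMARCA4 knockout, was used. The authors deposited raw read counts per gene symbol, 1 file per tumour without pooling. TopHat2 2.1.1, HTSeq 0.11.0 and hg38 are named per the submitters' processing notes; the annotation, the strand setting and any removal of host reads are not given in the sources used here. Reads of host transcripts that resemble human ones may therefore be counted. Nothing in the labels says whether tumours of a group came from separate cultures, so p-values measure the spread between these tumours. Each file holds 59050 symbols and 5 summary lines, left out of sizes and tests; 79.1% to 85.2% of reads were assigned to a gene. All 28 pairs of libraries differed beyond counting noise (chi-square per degree of freedom 5.73 or more).

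Genes were kept by filterByExpr (minimum count 10, minimum total 15), scaled by TMM and tested with edgeR 4.0.16 in R 4.3.3 by the quasi-likelihood F-test, with Benjamini-Hochberg adjustment over 16219 genes and a threshold of 0.05. SE is the log2 fold change divided by the root of F. Correlations used log2 CPM with a prior count of 2. Intervals of pooled ratios are exact (scipy 1.17.1) and, like zero-count limits, cover counting error only. Lengths and positions come from GENCODE 29 on GRCh38, matched by symbol (98.2% of tested genes), and describe genes, not alignments. The fit was tested on simulated data.

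Alternatives were DESeq2 1.42.0, limma-voom (limma 3.58.1), RLE and upper-quartile scaling, no filter, a minimum count of 50, a leukocyte covariate, the replicate number as a block and leaving out each tumour. Members, lists and tests were chosen with earlier results of these data known. Named genes are the members, SMARCA4, GLUL, SLC7A11, SLC3A2, SLC7A5 and the called members with the 3 largest rises and falls of each list. The 5 nearest tested genes on each side of SLC1A2 and the 5 genes most like it by each measure were also named. So were marker genes at 0 or highest in their list. AC008622.2, GFAP, EPCAM, SFTPB, SERPINA1 and further marker genes were added after their values were seen. Some genes that this rule names are not reported here.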

Additional observations from a re-analysis of the deposited data

Results flagged for a closer look

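For the SLC1 members and the other named genes, each extreme tumour was set against the other 3 of its group in 115 sets of 4 values, and 7 stood apart, where chance gives about 5% of sets. A single read made up 3 of these: SLC1A6 in knockout replicate 2 (0.0488 CPM), SLC1A7 in parental replicate 4 (0.0425 CPM) and SLC1A7 in knockout replicate 2 (0.0488 CPM), each with the other 3 tumours of the group at 0. ASNS was at 0.607 CPM, 13 counts, in knockout replicate 4, against 0.926 to 0.981 CPM in the other knockout tumours. GRIK3 was at 0.0467 CPM, 1 count, in knockout replicate 1, against 0.0933 to 0.0975 CPM. SLC36A1 was at 16.0 CPM in knockout replicate 1, against 17.5 to 17.8 CPM. ATP1B3 was at 80.1 CPM in knockout replicate 2, against 88.8 to 90.5 CPM.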

How the results depend on the processing

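Over 17 alternative settings, 234 of 254 recomputed values kept their direction and call or stayed within 1.5 times or 1 SD of the reported value. The number of changed genes was 3593 to 5253 on all 8 tumours and 3501 to 4721 with 1 tumour left out, and upper-quartile scaling called 54.1% of changed genes higher, against 47.9%. SLC1A5 passed the threshold without a filter (log2 fold change -0.37), by DESeq2 (-0.36) and with the leukocyte covariate (-0.35), and ran from -0.44 to -0.26 with 1 tumour left out, where it passed without parental replicate 2; it did not pass in the other 12 of 16 alternatives, and the cause was not tested. SLC1A4 ran from 0.49 to 0.69 with 1 tumour left out. SLC1A3 ran from -0.64 to 0.037 and changed sign without parental replicate 1; a minimum count of 50 gave it no value. With that minimum 0 glutamate receptor genes were called, since none of them was tested. By longest transcript the SLC1A2 share of the knockout family level was 1.36%. With 1 tumour left out, 3 to 8 other transporters and 1 to 2 pump subunits were called. Tumours with the same replicate number did not deviate together (correlations -0.04, -0.02, -0.19 and 0.09), and 0 of 4 parental tumours correlated best with their own number; the replicate block gave 3871 changed genes in place of 4385, log2 fold changes of 6.03 for SLC1A2 and 0.57 for SLC1A4, and no other call among the members. The alternatives for the neighbours of SLC1A2, chosen after seeing the data, gave 4 to 6 called genes. SLC1A2 ran from 5.78 to 6.77 with 1 tumour left out and rests on 11 parental counts, which limits the precision of its fold change.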

Other observations

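Other glial and neuronal marker genes, chosen here after their values were seen, did not move in 1 direction. ALDH1L1, a folate enzyme gene used as an astrocyte marker, fell from 21.1 ± 3.81 to 9.06 ± 0.883 CPM (SD, n = 4 each; log2 fold change -1.22, edgeR adjusted p = 9.84e-05). GJA1, the connexin gene of astrocytes and many epithelia, rose from 69.5 ± 11.3 to 118 ± 30.4 CPM (log2 fold change 0.76, edgeR adjusted p = 0.00999, n = 4 each). SNAP25, a synaptic vesicle fusion gene, rose from 12 counts in all parental to 93 in all knockout libraries (log2 fold change 2.92, edgeR adjusted p = 0.000873), and SYT1, a synaptic calcium sensor gene, fell by 0.64 on the log2 scale (adjusted p = 0.0168).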
